A study of Mus musculus with 12 samples.

Results

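The response of macrophages to IL-4 was compared between 2 genotypes within paired cultures, using all 12 of the 12 RNA-seq libraries of the series. The libraries were taken by their titles and formed 6 cultures, each with 1 mock and 1 IL-4 library, so that the IL-4 response was the difference between the libraries of a culture. The wild type (WT) gave 3 cultures. The knockout (KO) gave the other 3 and carried the genotype LysMCre Stk11 fl/fl, in which Cre recombinase is driven by the lysozyme 2 gene of myeloid cells and removes the floxed part of Stk11, the gene of the kinase LKB1. All cultures were macrophages grown from bone marrow with 40 ng/ml M-CSF over 7 days. The IL-4 library of each culture had 20 ng/ml IL-4 for 24 h and the mock library had none. Neither the ages of the mice nor any Cre or floxed allele in WT is given in the labels. The labels also do not say whether the cultures of a genotype came from separate mice, so p-values measure the spread between these cultures, which may be technical.

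IL-4 binds its receptor on macrophages and activates JAK kinases and the transcription factor STAT6, which switches on genes of alternative activation, among them arginase, chitinase-like proteins, the mannose receptor and MHC class II molecules. SOCS proteins are induced by the same signal and restrain it. LKB1 activates AMPK, which senses low cellular energy, and related kinases such as the SIKs, which hold back the CRTC coactivators of the transcription factor CREB. Macrophages activated by IL-4 are known for oxidative metabolism in mitochondria.

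Library totals ran from 30651627 to 39136822 counts over the 13715 genes of the table. Stk11 had 37.7 to 54.4 CPM (counts adjusted for library size) in the 6 WT libraries and 3.87 to 9.24 CPM in the 6 KO libraries, which do not overlap, and its IL-4 response did not pass the test for a difference between genotypes at 0.32 ± 0.15 (SE, adjusted p = 0.19). That value moved to 0.19 without KO culture 1 and to 0.52 without KO culture 3. Lyz2, the locus that drives Cre, set KO culture 2 apart, with 43.2 CPM in mock and 43.4 CPM with IL-4 against 15362 to 21618 CPM in KO cultures 1 and 3 and 28471 to 44637 CPM in WT. The 10 macrophage markers checked were all present. Of them 4 had a higher IL-4 response in KO (Itgam, Csf1r, Adgre1 and Mertk) and 1 a lower one (Spi1), beside 6.5% and 5.14% of all genes. Spi1 was no longer called after a correction for gene length (-0.26). Summed neutrophil markers ran from 413 to 567 CPM in WT mock, 314 to 443 in WT with IL-4, 744 to 1280 in KO mock and 578 to 1036 in KO with IL-4, with 12 of 15 listed genes in the table. Summed erythroid and megakaryocyte markers, with 4 of 10 listed genes in the table, stood higher in KO, at 575 to 646 CPM in mock and 513 to 601 with IL-4 against 39.9 to 57.9 and 41.2 to 63.8 in WT, and 0 of the 4 were called in the interaction. Elane, Prtn3 and Ctsg, the granule proteases of immature neutrophils, were not in the table. Of the neutrophil genes Csf3r, the G-CSF receptor, had a higher response in KO and Mmp8, a collagenase, a lower one. Whether other cell types had a part in any result below was not tested, and in bulk RNA fewer cells of a type and less RNA per cell cannot be told apart.

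IL-4 moved many genes in each genotype, and the size of the response differed at a part of them. In WT 16.8% of the genes rose and 16.7% fell with IL-4, and in KO 20.3% rose and 18.2% fell. Across genes, which are not independent replicates, Pearson's r between the responses of the genotypes was 0.83. Their difference, called the interaction here, is KO minus WT on the log2 scale of IL-4 over mock, so a positive value is a response shifted upward in KO and a negative value one shifted downward. Of the 13715 genes 1596 (11.6%) had a Benjamini-Hochberg adjusted p under 0.05 in edgeR's quasi-likelihood test with culture as a block. The response was higher in KO at 891 genes (6.5%) and lower at 705 (5.14%). With library size alone the split was 1067 higher and 417 lower, with a correction for gene length 352 and 792, and without KO culture 3 583 and 277. Most differences were small, with a median size of 0.47 among the called genes, and only 56 higher and 18 lower ones reached a 2-fold difference. The median over all genes was 0.04. At 1572 of the called genes the 3 KO cultures lay outside the range of the 3 WT cultures, and over all genes 4403 (32.1%) were separated in this way.

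The count leaned on the pairing and on single cultures. Without the culture block 101 genes were called, all of them among the 1596. Without both libraries of KO culture 1 the count was 357, without those of WT culture 2 it was 872 and without those of KO culture 3 it was 860. Without KO culture 2, the culture set apart by Lyz2, it was 1117, of which 549 were higher. No gene called in one direction was called in the other under any of the 14 alternatives.

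**Figure D1:**
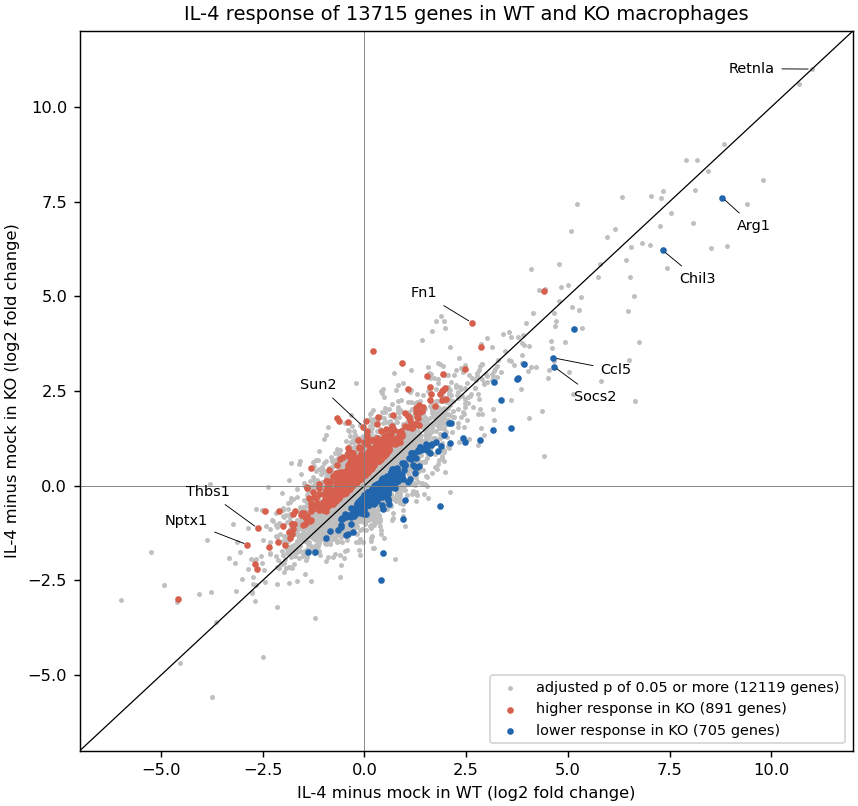
Each point is 1 of the 13715 genes, with the log2 fold change of IL-4 over mock in WT on the x axis and in KO on the y axis, and called genes are coloured by direction. Genes on the diagonal responded alike, and the 1596 called genes lie off it on both sides, most of them by less than 1 log2 unit.

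The called genes fell into a few patterns of response. Of the 891 genes with a higher response in KO, 395 rose with IL-4 in KO and passed no test in WT, and 207 fell in WT and passed no test in KO. Another 148 rose in both genotypes, 93 fell in both, 33 fell in WT and rose in KO, and 15 passed neither. Of the 705 genes with a lower response in KO, 266 rose in WT and passed no test in KO, and 242 fell in KO and passed no test in WT. A further 95 rose in both, 64 rose in WT and fell in KO, 29 fell in both, and 9 passed neither.

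Levels show where these differences sat. Among the 891 genes with a higher response the 3 KO mock libraries lay below the 3 WT mock libraries at 684 and above them at 53, with a median KO minus WT difference of -0.55 in log2 CPM. With IL-4 the same genes had a median difference of 0.01, and KO lay below WT at 162 of them and above it at 208. Among the 705 genes with a lower response KO mock lay above WT mock at 490 and below it at 25, with a median difference of 0.30. With IL-4 their median was -0.12, with KO below WT at 269 and above it at 51. The larger difference in level was thus in mock for both directions. For comparison, among the 12119 genes not called KO mock lay below WT mock at 2717 and above it at 2571. With IL-4 KO lay below WT at 2147 of these uncalled genes and above it at 2084. These levels are from the libraries that gave the interaction, so they describe it and are no test of it.

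The direction of the interaction moved with gene length. Across genes Spearman's rho between interaction and gene length was 0.33. In the 4569 shortest genes the median interaction was -0.12, with 51 called higher and 447 lower, and in the 4571 longest it was 0.19, with 672 called higher and 47 lower. Within single cultures the rho of the IL-4 minus mock difference with length was 0.20, 0.16 and 0.14 in KO cultures 1, 2 and 3 and 0.02, -0.19 and -0.07 in WT. After each library's trend with length was removed, rho was 0.01 and 1144 genes were called, of which 825 were among the 1596. The part of read processing or RNA quality in this trend was not tested, so the gene groups below are given with their counts after the length correction.

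**Figure D2:**
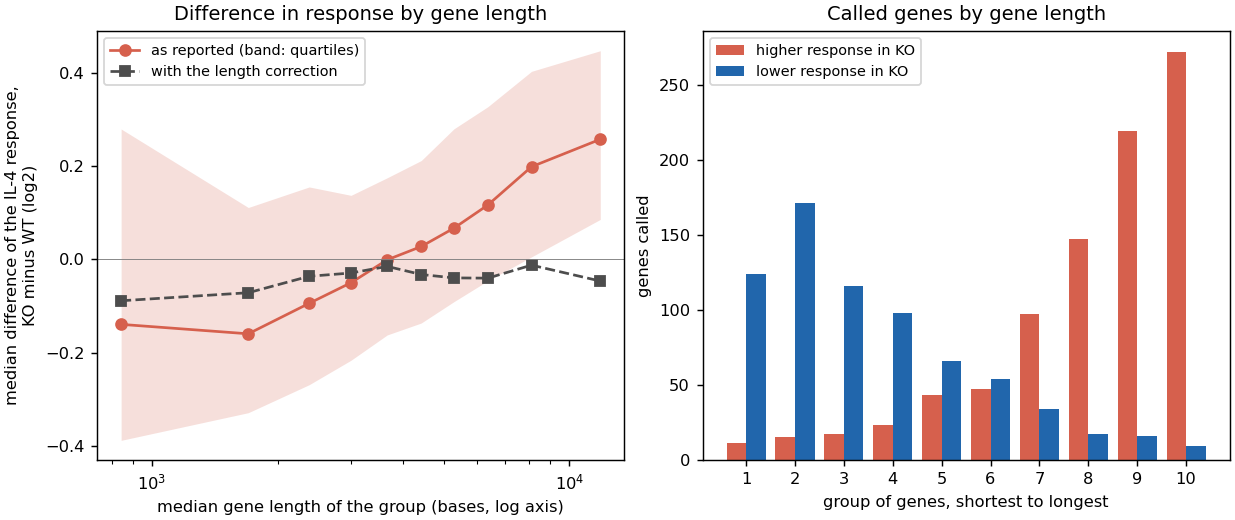
Left, the median interaction (log2, KO minus WT) of 10 groups of genes of rising length against their median length in bases on a log axis, with and without the length correction. Right, bars count genes called higher or lower in each group, and lower calls outnumber higher ones in the groups of short genes while those of long genes show the reverse.

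Among the 12 named genes with the largest higher responses in KO, which by rule had a mean log2 CPM of at least 3, were Fn1, Thbs1, Vegfa and Csf1. Fn1, on the minus strand at chr1:71585520-71653200 (mm10), encodes fibronectin and is a known IL-4 target of macrophages. It had 33.5, 32.2 and 42.6 CPM in WT mock cultures 1, 2 and 3 and 252, 162 and 271 CPM with IL-4. In KO it had 7.80, 13.6 and 17.1 CPM in mock and 204, 289 and 251 CPM with IL-4. KO was lower in every mock library, while the IL-4 libraries of the genotypes overlapped. The within-culture rise was 2.91, 2.33 and 2.67 in WT and 4.70, 4.40 and 3.87 in KO on the log2 scale, an interaction of 1.66 ± 0.17 (SE, adjusted p = 0.0002). Thbs1, the matrix glycoprotein thrombospondin-1 and a CREB target, on the plus strand at chr2:118111876-118127133, fell with IL-4 in both genotypes. Its levels were 112, 77.9 and 109 CPM in WT mock and 18, 11.5 and 19.5 CPM in WT with IL-4. KO stood above every WT library, with 785, 1314 and 962 CPM in mock and 391, 594 and 411 CPM with IL-4. The fall was -2.63, -2.75 and -2.49 in WT and only -1.01, -1.15 and -1.23 in KO, an interaction of 1.50 ± 0.09 (SE, adjusted p = 1.1e-06). Vegfa, the angiogenic growth factor, had the same form, with falls of -1.79, -1.60 and -1.86 in WT and -0.69, -0.79 and -0.74 in KO and an interaction of 1.01 ± 0.09 (SE, adjusted p = 6.1e-05). Its level with IL-4 was 13.7 ± 1.30 CPM in WT and 82.7 ± 12.2 CPM in KO (mean ± SD, n = 3). Csf1, which encodes M-CSF, changed by -0.12, 0.24 and 0.51 in WT and 1.51, 1.28 and 0.85 in KO, an interaction of 0.999 ± 0.18 (SE, adjusted p = 0.0039) that was lost without the culture block (adjusted p = 0.12). Fn1, Thbs1 and Vegfa were called in all 14 alternatives.

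Other large upward shifts were at genes of varied function. Sun2 encodes a protein of the inner nuclear membrane. It had 8.56, 9.58 and 17.3 CPM in WT mock and 12, 11.6 and 9.92 in WT with IL-4, against 2.89, 3.92 and 4.52 in KO mock and 12.4, 12.3 and 8.89 in KO with IL-4. The 3 KO mock libraries were the lowest of all, and with IL-4 the genotypes overlapped. The interaction was 1.58 ± 0.31 (SE, adjusted p = 0.0066), with changes of 0.49, 0.27 and -0.80 in WT, where culture 3 differed in sign, and 2.08, 1.63 and 0.97 in KO. Nptx1, a neuronal pentraxin, fell by less in KO, at -1.60, -1.54 and -1.55 against -2.995, -2.99 and -2.65 in WT. Fzd1, a Wnt receptor, fell in WT at -0.20, -0.16 and -0.53 and rose in KO at 0.82, 0.91 and 0.80, an interaction of 1.15 ± 0.13 (SE, adjusted p = 0.00044). Cap1, an actin regulator, also fell in WT and rose in KO, at -0.42, -0.35 and -0.29 and 1.18, 0.47 and 0.29. Ndst1, which modifies heparan sulfate, fell in WT by a fitted 0.77 and rose in KO by 0.25. Prps1, which makes the precursor of nucleotides, rose in both genotypes, at 1.71, 1.31 and 1.81 in WT and 2.78, 2.43 and 2.61 in KO. Ksr2, a scaffold of MAP kinase signalling, and Dennd4a, an activator of Rab GTPases, completed the 12 with interactions of 1.02 ± 0.20 and 1.15 ± 0.21. Sun2, Fzd1, Prps1 and Cap1 were called in all alternatives, whereas Nptx1, Dennd4a, Ndst1 and Ksr2 were lost without the culture block, with adjusted p of 0.14, 0.099, 0.056 and 0.073.

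**Figure D3:**
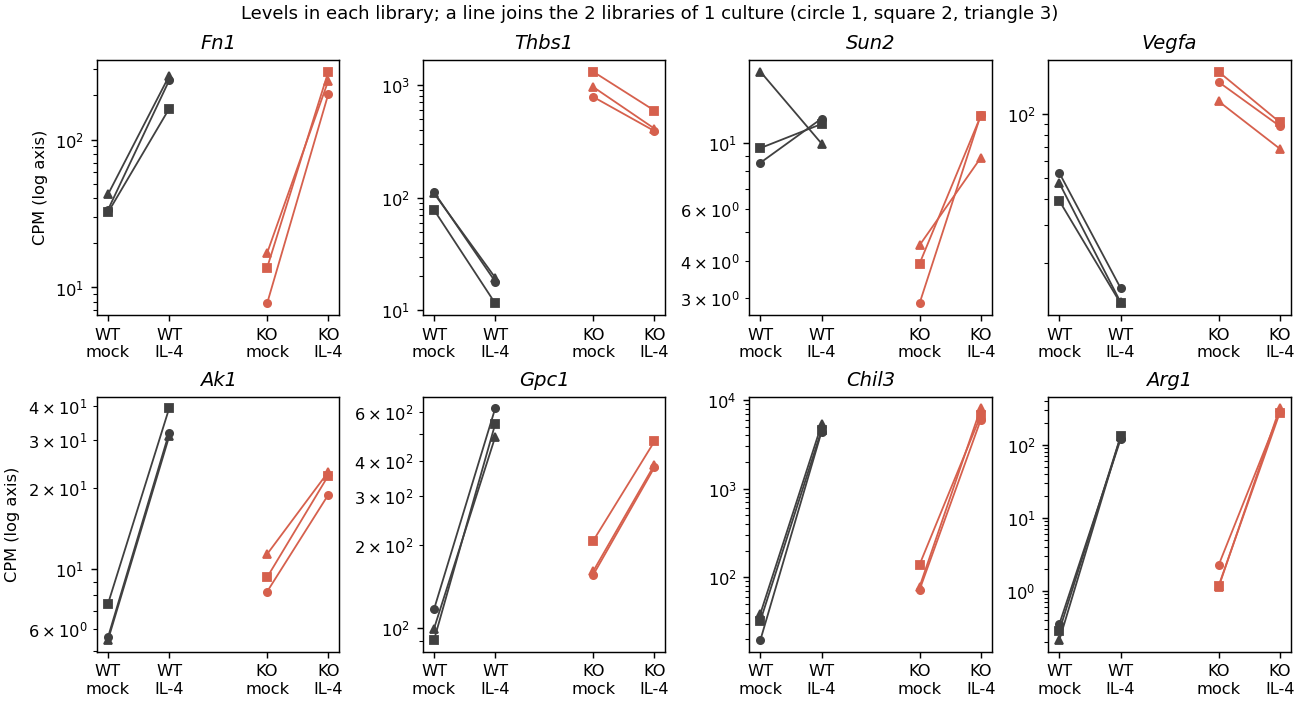
CPM of 8 genes in each library on log axes, with WT in grey and KO in orange and a line joining the mock and IL-4 libraries of 1 culture. Thbs1 and Vegfa fall less steeply in KO, Fn1 and Sun2 start lower in KO mock and meet WT with IL-4, and Ak1 and Gpc1 rise less steeply in KO.

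The largest lower responses were mostly weaker rises in KO. Ak1, adenylate kinase 1, interconverts adenine nucleotides and is on the plus strand at chr2:32621758-32635058. Its levels were 5.61, 7.45 and 5.48 CPM in WT mock and 31.9, 39.2 and 30.9 in WT with IL-4. In KO they were 8.26, 9.34 and 11.4 in mock and 18.8, 22.2 and 22.9 with IL-4. KO was higher in every mock library and lower in every IL-4 library. The rise was 2.50, 2.39 and 2.48 in WT and 1.18, 1.24 and 1.005 in KO, an interaction of -1.32 ± 0.12 (SE, adjusted p = 6.1e-05). Gpc1, a heparan sulfate proteoglycan of the cell surface, rose by 2.40, 2.58 and 2.29 in WT and 1.28, 1.19 and 1.27 in KO, an interaction of -1.18 ± 0.09 (SE, adjusted p = 6.6e-06). Ptgs1, cyclooxygenase 1, rose by 3.57, 3.75 and 3.92 and 2.81, 2.69 and 2.90, an interaction of -0.95 ± 0.11 (SE, adjusted p = 0.00044). Ier3, an immediate-early gene, rose by 2.99, 3.40 and 3.61 and 2.35, 2.09 and 2.31, and its KO level with IL-4 was still above WT, at 65.2 ± 2.14 against 37.7 ± 3.81 CPM (SD, n = 3). Dok2, an adaptor that restrains tyrosine kinase signalling, rose by 1.30 in WT and 0.49 in KO. Chchd10, a protein of the mitochondrial intermembrane space, rose by 1.34 and 0.52. Gamt, which makes creatine, rose by 0.75 in WT and changed by -0.05 in KO, with no overlap between the cultures. Each of these 7 genes was called in all 14 alternatives. Fgfr1, a fibroblast growth factor receptor, fell in KO at -1.46, -0.84 and -1.37, passed no test in WT at -0.12, -0.39 and -0.30, and lost its interaction call without the block (adjusted p = 0.073).

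**Figure D4:**
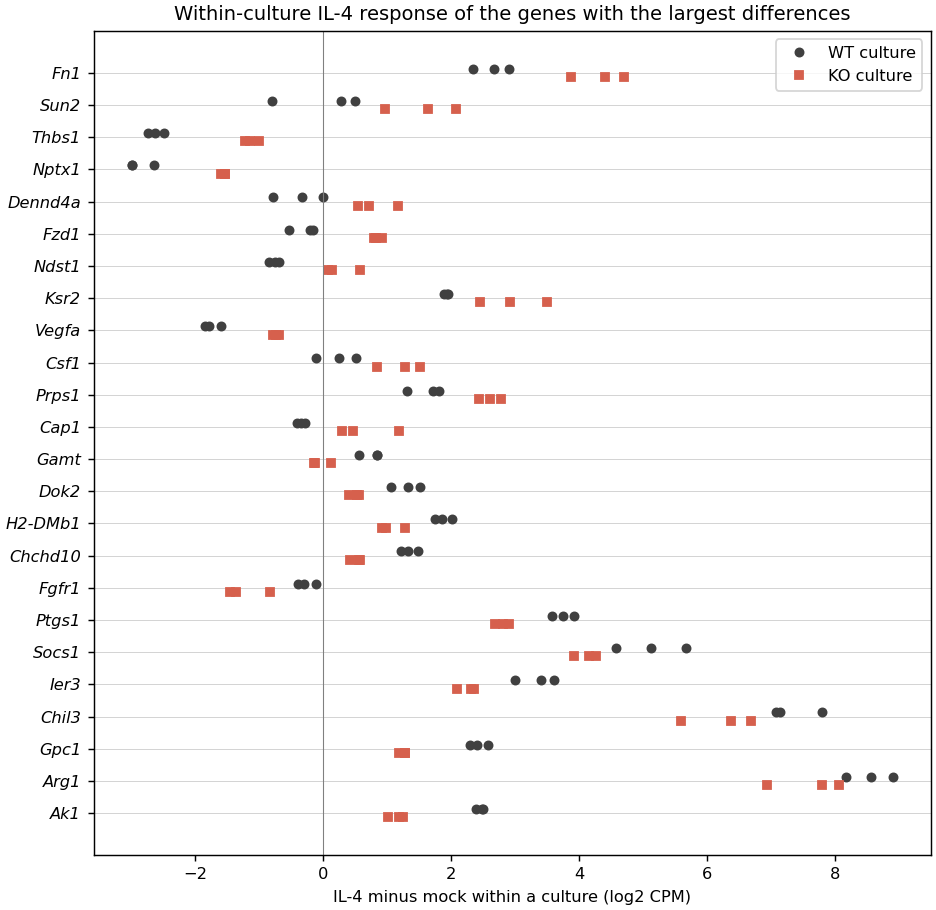
IL-4 minus mock within each culture (log2 CPM) for the genes with the largest interaction in each direction and for Chil3 and Arg1, with a circle for each WT culture and a square for each KO culture. For the genes chosen by the rule on size the 3 squares lie wholly to one side of the 3 circles, which the rule required.

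The signal that carries IL-4 into the cell gave few called differences. Of 25 measured genes of the IL-4 receptor and STAT6 list 2 had a higher and 2 a lower response in KO, beside 6.5% and 5.14% of all genes. The receptor chain Il4ra (0.24 ± 0.08), Stat6 (-0.01 ± 0.08), Jak1 (0.22 ± 0.09) and Il2rg (-0.02 ± 0.10) did not pass the test. Cish, an early STAT target, rose by 8.14 in WT and 7.81 in KO, with an interaction of -0.32 ± 0.38 that did not pass. The feedback inhibitors Socs1 and Socs2 rose in both genotypes and by a smaller fold in KO. Socs1 rose by 5.12, 5.67 and 4.58 in WT and 4.15, 4.27 and 3.92 in KO, an interaction of -1.01 ± 0.23 (SE, adjusted p = 0.013). Socs2 rose by 4.67, 4.63 and 4.27 in WT and 2.85, 3.14 and 3.30 in KO, an interaction of -1.51 ± 0.24 (SE, adjusted p = 0.0023). The level of Socs1 with IL-4 was 41.9 ± 8.43 CPM in WT and 42 ± 3.77 in KO (SD, n = 3). In mock Socs1 was higher in KO than in WT, at 2.38 ± 0.289 against 1.15 ± 0.276 CPM. Socs2 with IL-4 was at 12.5 ± 1.62 CPM in WT and 13.1 ± 0.844 in KO (SD, n = 3). Its mock base was small, with 49 counts over the 3 WT libraries and 148 over the 3 KO libraries. Inpp5d, the phosphatase SHIP1, had a higher response at 0.29 ± 0.08, and after length correction it was at 0.09 and 0 genes of the list were called higher. With library size alone 5 were. Socs2 held its call in every alternative, while Socs1 lost it without the block (adjusted p = 0.074) and without WT culture 2 (-0.73, adjusted p = 0.051). The count of higher responses was 1 without WT culture 2 or 3 or any 1 KO culture, and that of lower ones was 1 without WT culture 2.

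The genes that mark alternative activation were induced in both genotypes, and they differed in both directions. Of 43 measured genes of the list 41 rose with IL-4 in WT and 40 in KO. The response was higher in KO at 5 and lower at 7, beside 6.5% and 5.14% of all genes. The list median was -0.15 against 0.04 over all genes. After length correction the counts were 5 and 8, without the block 2 and 2, and without WT culture 1 the lower count was 4. Chil3, a chitinase-like protein, on the minus strand at chr3:106147554-106167564, had 19.6, 32.4 and 38.9 CPM in WT mock and 4403, 4585 and 5299.7 with IL-4. In KO it had 72, 139 and 78 CPM in mock and 5968, 6681 and 8059 with IL-4. KO mock stood above WT mock throughout, and the rise was 7.80, 7.14 and 7.09 in WT and 6.37, 5.59 and 6.69 in KO, an interaction of -1.12 ± 0.22 (SE, adjusted p = 0.0078). That call was lost only without the block (adjusted p = 0.12).

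Arg1, arginase 1, on the minus strand at chr10:24915221-24927484, rested on few mock reads. It had 28 counts over the 3 WT mock libraries and 147 over the 3 KO mock libraries, and 13803 and 30584 counts with IL-4. Its levels with IL-4 were 118, 129.8 and 129 CPM in WT and 279, 272 and 315 CPM in KO. The fold rise was thus smaller in KO although its level was higher, with an interaction of -1.19 ± 0.37 (SE, adjusted p = 0.048). The call was lost in 10 of the 14 alternatives, among them without WT culture 1 (-1.43), 2 (-1.19) or 3 (-0.99) and without KO culture 1 (-0.80) or 2 (-1.33). Retnla, the resistin-like molecule of this program, had 10 and 4 mock counts in WT and KO and 23838 and 9511 counts with IL-4, which leaves its fold response without a usable base. Mrc1, the mannose receptor, rose by 3.46, 2.84 and 3.28 in WT and 3.32, 2.88 and 3.08 in KO, an interaction of -0.11 ± 0.14 that did not pass the test (adjusted p = 0.68). It ranged from 0.01 without WT culture 1 to -0.28 without WT culture 2.

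Several surface and transport genes of the program rose further in KO. Clec7a, the beta-glucan receptor dectin-1, had 546, 465 and 426 CPM in WT mock and 1281, 1098 and 1253 with IL-4, against 353, 349 and 362 and 1574, 1531 and 1576 in KO. All 3 KO libraries passed all WT libraries with IL-4. Its rise was 1.23, 1.24 and 1.56 in WT and 2.16, 2.13 and 2.12 in KO, an interaction of 0.79 ± 0.09 (SE, adjusted p = 0.00044) that held in all alternatives. The others were Slc7a2, an arginine transporter, at 0.72 ± 0.12, Il6st, the shared receptor chain gp130, at 0.65 ± 0.09 (0.37 after length correction), and Atp6v0d2, a proton pump subunit, at 0.29 ± 0.09. Lower rises were also seen at Ear2, a ribonuclease, at -0.93 ± 0.20, and at Mmp13, a collagenase, at -0.74 ± 0.18.

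The promoter of Clec7a is shown because it held the only STAT6-type motif among the 7 called genes of the IL-4 list with a promoter window. The motif searched was TTC and GAA set 4 bases apart, which reads alike on both strands, in windows of 250 bases before to 50 after each start from RefSeq (GRCm38.p6, the mm10 assembly). The window lies on the minus strand at chr6:129472730-129473029, and capitals mark the motif.
Clec7a: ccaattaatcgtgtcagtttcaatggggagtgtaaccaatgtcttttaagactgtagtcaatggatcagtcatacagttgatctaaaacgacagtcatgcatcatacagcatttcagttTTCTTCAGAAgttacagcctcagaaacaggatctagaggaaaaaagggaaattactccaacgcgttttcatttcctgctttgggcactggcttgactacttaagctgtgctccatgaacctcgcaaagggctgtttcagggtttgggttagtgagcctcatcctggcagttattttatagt
The motif was in 5 of 27 matched genes of the IL-4 list (18.5%), in 669 of 9918 matched genes tested (6.75%) and in 8.01% of all genes of the promoter table. Among matched genes with a higher or a lower response in KO it was in 7.18% and 6.62%, near the share of all genes tested. A match describes letters and is not a bound site.

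MHC class II presentation genes responded less in KO where they differed. Of 12 measured genes 4 had a lower and 0 a higher response, beside 5.14% of all genes called lower. The list median was -0.26, and all 4 kept the call after length correction. H2-DMb1, a chain of the molecule that loads peptides, had 61.6, 58.8 and 53.6 CPM in WT mock and 61.9, 54 and 53.1 in KO mock. With IL-4 it had 223, 236 and 179.5 in WT and 116, 130.4 and 105 in KO. The mock libraries overlapped and every KO library with IL-4 was below every WT one, with an interaction of -0.81 ± 0.10 (SE, adjusted p = 0.001) that held in all alternatives. Its partner H2-DMa gave -0.47 ± 0.11, H2-DMb2 -0.94 ± 0.25 and the class II chain H2-Ab1 -0.45 ± 0.12. Cd74, the invariant chain, H2-Aa and H2-Eb1 did not pass the test, at -0.33 ± 0.14, -0.25 ± 0.13 and -0.15 ± 0.09. Ciita, the master regulator of the class, rose by 3.77 in WT and 3.93 in KO, a difference that did not pass. The count was 1 without the block, without WT culture 2 and without KO culture 1. H2-DMa lost its call without WT culture 2 (-0.38) or KO culture 1 (-0.36), and H2-Ab1 without WT culture 2 (-0.38) or 3 (-0.44) or KO culture 1 (-0.31) or 2 (-0.47). Reads of near-identical genes such as the H2-DMb pair may have been split by the counting.

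Targets of CREB and its CRTC coactivators, which LKB1-dependent kinases restrain, differed in both directions. Of 26 measured entries 5 had a higher and 3 a lower response, beside 6.5% and 5.14% of all genes. The list median was -0.01, and after length correction the counts were 4 and 2. The higher ones were Thbs1 and Vegfa, described above, Nr4a1, Sik1 and Pde4b, a cAMP phosphodiesterase. Nr4a1, an orphan nuclear receptor, had 10.1, 10.9 and 10.8 CPM in WT mock and 2.19, 3.14 and 2.61 with IL-4, and 40.5, 43.6 and 39.1 and 18.4, 23.9 and 17.2 in KO. KO stayed above WT in both treatments, the fall was -2.18, -1.78 and -2.03 in WT and -1.13, -0.87 and -1.18 in KO, and the interaction of 0.95 ± 0.15 (SE, adjusted p = 0.002) held in all alternatives. Lower responses were at Arg1, at Cebpb, a transcription factor (-0.52 ± 0.10), and at Dusp1, a phosphatase of MAP kinases (-0.60 ± 0.09). Dusp1 passed no test in WT at -0.05, -0.06 and -0.15 and fell in KO at -0.73, -0.58 and -0.74. After length correction the calls at Pde4b (0.21) and Arg1 (-1.12) were lost. Without WT culture 3 or KO culture 1 the higher count was 3, and without the block it was 3 with 0 lower.

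In the list of LKB1, AMPK and related kinases the called differences were at partners and targets more than at the kinases. Of 30 measured genes 5 had a higher and 0 a lower response, beside 6.5% and 5.14% of all genes. The list median was 0.16 against 0.04 over all genes, and with the length correction it was 0.04 against -0.04. Fnip2 and Fnip1 bind folliculin and AMPK. Fnip2 fell in WT at -0.73, -1.03 and -0.89 and changed by 0.35, -0.06 and -0.09 in KO, an interaction of 0.95 ± 0.11 (SE, adjusted p = 0.0006). Fnip1 fell in WT at -0.32, -0.59 and -0.09 and rose in KO at 0.49, 0.15 and 0.26, an interaction of 0.62 ± 0.13 (SE, adjusted p = 0.01). Sik1, a kinase of the family, gave 0.75 ± 0.18, Crtc3 0.53 ± 0.13 and Creb1 0.50 ± 0.13. The AMPK catalytic subunit Prkaa1 (0.32 ± 0.11), the folliculin gene Flcn (0.05 ± 0.08) and Crtc2 (0.03 ± 0.11) did not pass. The counts were 3 higher and 1 lower after length correction, with Crtc3 at 0.27 and Creb1 at 0.19 no longer called, and 0 higher without the block. Without KO culture 1 the higher count was 1, with Fnip1 at 0.52 and Sik1 at 0.52, and Sik1 was also lost without WT culture 3 (0.71).

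Among the 27 lists the most called genes were in nuclear genes of oxidative phosphorylation, most of which rose with IL-4 in WT and passed no test in KO. These genes encode subunits of the respiratory chain and of ATP synthase. Of 74 measured genes 65 rose in WT and 0 fell, whereas 9 rose and 9 fell in KO. The response was lower in KO at 58 of the 74 and higher at 0, beside 5.14% of all genes called lower. All 74 interactions were negative, from -0.70 to -0.13, with a median of -0.42 against 0.04 over all genes. The list median of IL-4 minus mock was 0.36, 0.46 and 0.48 in WT cultures 1, 2 and 3 and -0.07, 0.05 and 0.04 in KO, so the genotypes did not overlap. In level, KO stood above WT in mock by a median of 0.27 in log2 CPM and below it with IL-4 by -0.16. In mock 41 of the 74 genes were higher in every KO library than in any WT one. The same held at 2571 of the 12119 genes not called in the interaction. After length correction 52 genes of the list had a lower response. Without KO culture 1 there were 32 and without the block 7.

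The lower responses reached each respiratory complex. By gene symbol, 28 of 36 genes of complex I, 3 of 4 of complex II, 6 of 8 of complex III, 8 of 11 of complex IV and 12 of 14 of complex V were called lower, and their medians ran from -0.55 in complex III to -0.40 in complex II. Cycs, cytochrome c, was called too, at -0.38 ± 0.09. Uqcrq, a small subunit of complex III, had 54, 67.3 and 55.2 CPM in WT mock and 80.4, 105 and 79 with IL-4. In KO it had 81.5, 77.9 and 81.2 in mock and 77.2, 71.7 and 72.7 with IL-4. Its change was 0.57, 0.65 and 0.52 in WT and -0.08, -0.12 and -0.16 in KO, an interaction of -0.70 ± 0.08 (SE, adjusted p = 0.0006). Cyc1, cytochrome c1 of the same complex, rose by 0.69, 0.73 and 0.63 in WT and changed by 0.05, 0.19 and 0.04 in KO, an interaction of -0.59 ± 0.08 (SE, adjusted p = 0.0012). Ndufa13 of complex I rose by 0.64, 0.85 and 0.68 in WT and changed by 0.04, 0.19 and 0.04 in KO, an interaction of -0.64 ± 0.09 (SE, adjusted p = 0.0012). Each of these 3 genes held in all alternatives. Sdha, which carries the flavin of complex II, and Ndufs1, the largest subunit of complex I, were among the genes not called, at -0.19 ± 0.08 and -0.13 ± 0.09.

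The promoters of Cox6a1 and Ndufa11, subunits of complexes IV and I with interactions of -0.51 ± 0.08 and -0.56 ± 0.10, are shown because they hold a core motif of NRF1, a regulator of respiratory genes, searched as GCGCATGC on both strands, where matches on opposite strands may overlap. The windows lie at chr5:115348909-115349208 on the minus strand and at chr17:56717512-56717811 on the plus strand (RefSeq, GRCm38.p6), with the motif in capitals.
Cox6a1: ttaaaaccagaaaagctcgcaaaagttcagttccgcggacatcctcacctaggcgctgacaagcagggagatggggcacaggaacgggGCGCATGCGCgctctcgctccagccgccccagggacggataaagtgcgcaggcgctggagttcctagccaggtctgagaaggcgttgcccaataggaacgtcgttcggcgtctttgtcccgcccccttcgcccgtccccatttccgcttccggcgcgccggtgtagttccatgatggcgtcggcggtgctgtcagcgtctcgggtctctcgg
Ndufa11: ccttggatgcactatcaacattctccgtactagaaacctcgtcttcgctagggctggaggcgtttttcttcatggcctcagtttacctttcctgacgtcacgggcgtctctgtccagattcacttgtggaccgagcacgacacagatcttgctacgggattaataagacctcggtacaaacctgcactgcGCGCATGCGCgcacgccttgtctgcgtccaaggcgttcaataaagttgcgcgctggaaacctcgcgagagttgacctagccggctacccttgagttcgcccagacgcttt
The motif was in 10 of 62 matched genes of the list (16.1%), in 593 of 9918 matched genes tested (5.98%) and in 3.05% of all genes of the promoter table. Among all matched genes with a lower response it was in 6.27% and among those with a higher response in 5.28%.

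Some genes of the mitochondrial ribosome, which translates the proteins coded by mitochondrial DNA, responded less in KO. Of 75 measured genes 20 rose and 1 fell in WT, and 1 rose and 24 fell in KO. The response was lower at 24 and higher at 0, beside 5.14% of all genes called lower, with a median of -0.28, and 20 were lower after length correction. Mrpl55 rose in WT at 0.25, 0.41 and 0.17 and fell in KO at -0.37, -0.21 and -0.34, an interaction of -0.58 ± 0.11 (SE, adjusted p = 0.0053). Mrpl2 gave -0.48 ± 0.10 and Mrps28 -0.52 ± 0.11, and Mrpl2 lost its call without KO culture 1 (-0.43). The list count was 2 without KO culture 1, 15 without KO culture 2, 11 without KO culture 3, 12 without WT culture 2, 14 without WT culture 3 and 11 with library size alone. Without the block it was 1.

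Genes coded by mitochondrial DNA itself shifted the other way. All 9 measured had a positive interaction and 5 were called higher, against 6.5% of all genes. The list medians of IL-4 minus mock were -0.13, 0.19 and -0.05 in WT and 0.74, 0.17 and 0.46 in KO, so the genotypes overlapped. Genes with an mt- symbol made up only 0.129% (KO mock of culture 1) to 0.199% (KO with IL-4 of culture 1) of a library's counts. The complex I gene mt-Nd5 passed no test in WT at -0.13, 0.08 and -0.03 and rose in KO at 1.06, 0.45 and 0.80, an interaction of 0.79 ± 0.12 (SE, adjusted p = 0.002). Its levels were 146, 137 and 96.4 CPM in WT mock and 57.9, 82.3 and 69.3 in KO mock, and 133, 145 and 94.5 and 121, 112 and 120.5 with IL-4. KO mock was thus below WT mock in every library, and with IL-4 the genotypes overlapped. The gene mt-Nd6 gave 0.62 ± 0.14, mt-Nd4 0.52 ± 0.13, mt-Cytb 0.44 ± 0.11 and mt-Nd3, at a mean log2 CPM of -0.64, 1.68 ± 0.48. Of these, mt-Nd6 lies on the opposite strand beside mt-Nd5, and the annotated genes overlap at their ends. Use of strand in the counting is not stated, and whether reads of mt-Nd5 transcripts entered the mt-Nd6 count was not tested. The count of 5 was 1 without KO culture 1, 2 without KO culture 3, 3 without WT culture 1, 2 without WT culture 3 and 0 without the block. It was 6 after length correction. The call at mt-Nd6 was lost without WT culture 1 (0.49) or KO culture 1 (0.54) or 3 (0.55), and that at mt-Cytb without WT culture 3 (0.35) or KO culture 1 (0.35) or 3 (0.41).

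Some enzymes of the pathways that feed the respiratory chain had a lower response in KO. In the TCA cycle list 5 of 35 genes had a lower and 0 a higher response, beside 5.14% of all genes called lower, with a median of -0.16 and 8 lower after length correction. Mdh2, mitochondrial malate dehydrogenase, rose by 0.55, 0.59 and 0.45 in WT and changed by -0.10, 0.22 and -0.02 in KO, an interaction of -0.50 ± 0.09 (SE, adjusted p = 0.005) that held in all alternatives. Sdhb, Sdhc and Sdhd, which the respiratory list also holds, gave -0.43 ± 0.08, -0.40 ± 0.08 and -0.40 ± 0.08, and cytosolic Mdh1 gave -0.28 ± 0.08 (-0.23 and not called after length correction). In glycolysis 7 of 30 entries had a lower and 0 a higher response, with a median of -0.09 and 12 positive values. Eno1, an enolase, rose in WT at 0.36, 0.33 and 0.20 and fell in KO at -0.33, -0.11 and -0.21, an interaction of -0.51 ± 0.08 (SE, adjusted p = 0.0023). Pgk1 (-0.47 ± 0.08), Ldhb (-0.44 ± 0.10), Pfkp (-0.39 ± 0.09), Pkm (-0.38 ± 0.08), Aldoa (-0.33 ± 0.08) and Gpi1 (-0.33 ± 0.08) were the others. Eno1 and Pgk1 held in all alternatives. Without KO culture 1 both counts fell to 2, with Pkm at -0.34 and Sdhd at -0.36. After length correction 8 entries of glycolysis were lower, with Pfkp at -0.70.

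Fat and sterol metabolism gave few differences. In fatty acid oxidation 3 of 42 genes had a lower and 1 a higher response, beside 5.14% and 6.5% of all genes. Etfb, which passes electrons to the respiratory chain, gave -0.52 ± 0.11, Lpl, a lipase, -0.32 ± 0.07 and Acadvl, an acyl-CoA dehydrogenase, -0.29 ± 0.09. Etfb and Lpl lost their calls without KO culture 1 (-0.48 and -0.32). After length correction the list had 0 higher and 2 lower, with Lpl at -0.59 and Acadvl no longer called. Cpt1a, which brings fatty acids into mitochondria, gave 0.28 ± 0.08 before and 0.08 after length correction. Its call was lost when any one culture was left out (0.23 to 0.30), and the lower count of the list was 0 without KO culture 1. In fatty acid synthesis Elovl1 was the 1 called gene of 17, and in cholesterol synthesis Pmvk and Mvk were the 2 of 24, all lower, and length correction gave 2 and 1 lower with Elovl1 and Mvk no longer called. Elovl1 lost its call in 8 of the alternatives, with -0.31 to -0.25 on leaving out WT culture 1, 2 or 3 or KO culture 1 or 3, and Pmvk and Mvk lost theirs without KO culture 1 (-0.44 and -0.46) or KO culture 3 (-0.46 and -0.37), Mvk also without WT culture 1 (-0.45) or 2 (-0.42). Without KO culture 3 the cholesterol list had 3 higher and 0 lower. With library size alone the fatty acid synthesis list had 1 higher and 0 lower, and the cholesterol list 1 and 1.

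Some antioxidant genes of the transcription factor NRF2 responded less in KO. With IL-4 10 of the list rose and 10 fell in WT, and 4 rose and 16 fell in KO. The list medians of IL-4 minus mock were 0.00, -0.02 and -0.04 in WT and -0.23, -0.16 and -0.15 in KO. Of 30 measured genes 10 had a lower and 0 a higher response, beside 5.14% of all genes called lower, with a median of -0.21, and 12 were lower after length correction. Osgin1, an oxidative stress gene, rose in WT at 0.77, 0.88 and 0.59 and changed in KO by -0.05, 0.26 and 0.13, an interaction of -0.63 ± 0.11 (SE, adjusted p = 0.003) that held in all alternatives. Ftl1, the ferritin light chain that stores iron, had 16735, 17327 and 16585 CPM in WT mock and 15720.0, 18578 and 15966 with IL-4. In KO it had 25344, 21562 and 22747 in mock and 17075, 16762 and 16040.0 with IL-4. KO was higher in each mock library and overlapped WT with IL-4, an interaction of -0.46 ± 0.08 (SE, adjusted p = 0.0031). Blvrb, a biliverdin reductase, gave -0.46 ± 0.08, and Prdx1, a peroxiredoxin, -0.50 ± 0.09. The count was 5 without WT culture 2 or KO culture 1, 4 without KO culture 3 and 1 without the block.

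Cytosolic ribosomal protein genes mostly rose with IL-4 in WT and seldom in KO. Of 52 measured genes 41 rose in WT and 9 in KO. The response was lower at 13 and higher at 0, beside 5.14% of all genes called lower, with a median of -0.23, and 10 were lower after length correction. Rps15 rose in WT at 0.36, 0.61 and 0.40 and changed in KO by -0.12, -0.02 and -0.02, an interaction of -0.51 ± 0.10 (SE, adjusted p = 0.0059). Rpl35 rose in WT at 0.18, 0.27 and 0.25 and fell in KO at -0.31, -0.13 and -0.22, an interaction of -0.45 ± 0.10 (SE, adjusted p = 0.01). The count moved with single cultures, from 1 without KO culture 1 and 5 without WT culture 2 or KO culture 3 to 23 without WT culture 1, and was 0 without the block. Rpl35 lost its call without KO culture 1 (-0.42). Ribosomal protein genes have many near-identical pseudogenes, so their counts are uncertain.

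**Figure D5:**
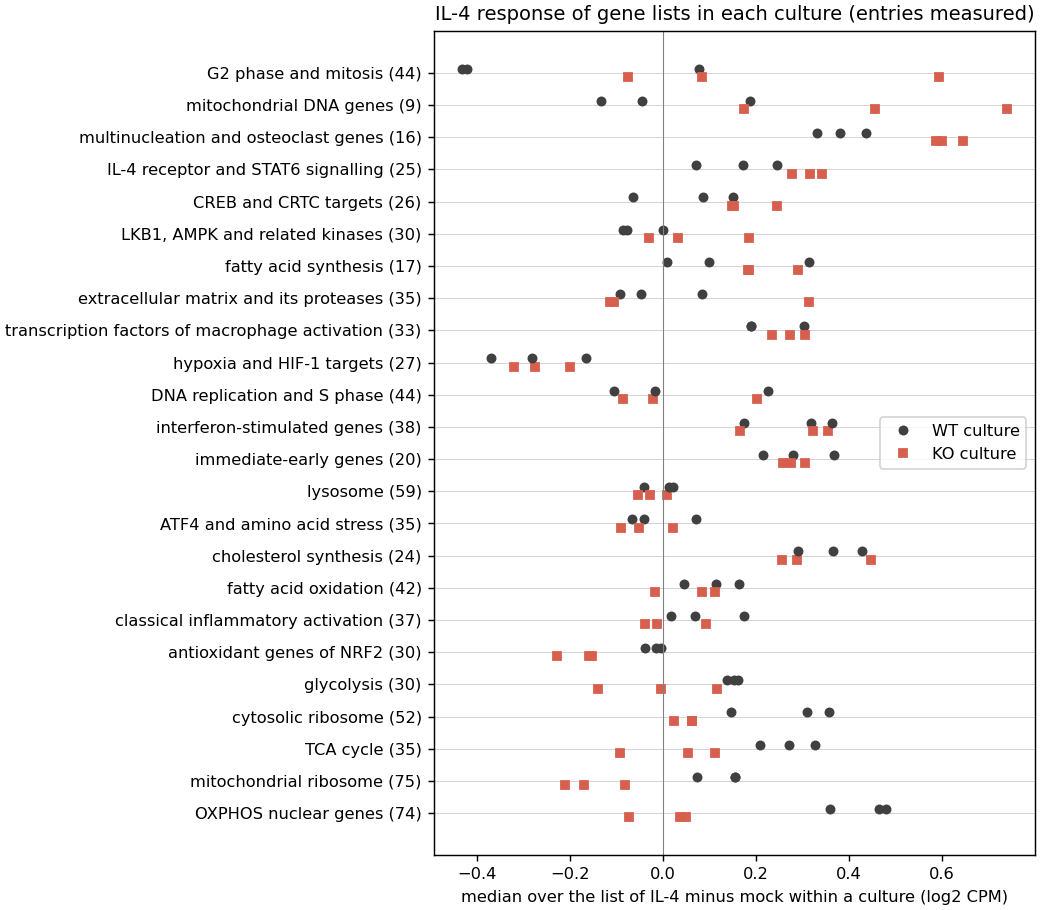
Median over each gene list of IL-4 minus mock (log2 CPM) in each culture, with circles for WT, squares for KO and the number of measured entries in brackets. The lists for IL-4 activation, MHC class II and chemokines are left out of the plot. WT and KO cultures do not overlap in the OXPHOS, mitochondrial ribosome, TCA cycle, glycolysis, cytosolic ribosome and NRF2 lists, all lower in KO. They also do not overlap in the IL-4 receptor and multinucleation lists, higher in KO. Points are without the length correction. With it the median interaction of the IL-4 receptor list went from 0.05 to -0.05, and that of the multinucleation list from 0.04 to 0.03.

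Mitotic genes gave higher responses in KO in a way that rested on single cultures. In the list of G2 phase and mitosis 7 of 44 genes were called higher and 0 lower, beside 6.5% of all genes called higher. The median interaction was 0.49, and 40 were positive. Kif4, a mitotic motor, gave 1.32 ± 0.33 (SE, adjusted p = 0.02) and Mki67, the Ki-67 proliferation marker, 1.24 ± 0.31 (SE, adjusted p = 0.02). Mki67 changed by 0.07, -0.52 and -0.65 in WT and 1.41, 1.46 and 0.03 in KO. The list medians were 0.08, -0.42 and -0.43 in WT and 0.08, 0.59 and -0.08 in KO, so the genotypes overlapped. KO was lower in level in both treatments, by medians of -1.57 in mock and -1.03 with IL-4. The count was 0 without KO culture 1 or KO culture 2, 1 without WT culture 2 or WT culture 3, 14 without KO culture 3, 5 after length correction and 3 in DESeq2. Without the block it was 0. Leaving out 1 culture lost the call of Mki67 in 4 cases (0.94 to 1.15) and that of Kif4 in 3 (0.90 to 1.38). Of 44 genes of DNA replication and S phase 0 were called in edgeR, and the alternatives called at most 2.

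Genes of classical inflammatory activation were called in both directions. Of 37 measured genes of classical activation 7 had a higher and 4 a lower response, beside 6.5% and 5.14% of all genes. Cd86, a costimulatory ligand, fell in WT at -0.97, -0.81 and -0.36 and changed by 0.32, 0.05 and 0.43 in KO, an interaction of 0.99 ± 0.18 (SE, adjusted p = 0.0051). Icam1, an adhesion ligand of leukocytes, rose in WT at 0.44, 0.42 and 0.29 and fell in KO at -0.37, -0.20 and -0.17, an interaction of -0.63 ± 0.09 (SE, adjusted p = 0.0017). Both held in all alternatives. Rel (0.77 ± 0.16), a subunit of NF-kB, and the receptors Tlr4 (0.48 ± 0.12) and Tlr2 (0.44 ± 0.11) were higher. Nfkbia (-0.42 ± 0.10), the inhibitor of NF-kB, and the scavenger receptor Marco (-1.69 ± 0.34) were lower. Marco rested on few mock reads, with 41 counts over the 3 WT and 124 over the 3 KO mock libraries. With IL-4 its genotypes overlapped, at means of 3.61 CPM in WT and 3.38 in KO. Ccl5 was the 1 called gene of 20 chemokines, with a smaller rise in KO at 2.93, 4.15 and 3.21 against 4.68, 4.45 and 4.61 in WT, and lost its call without KO culture 1 (-0.96, adjusted p = 0.079). Without WT culture 3 there were 2 higher chemokines and without KO culture 2 1. After length correction the counts of classical activation were 4 and 5, with Tlr4 (0.36) no longer called, and 1 chemokine was lower. The higher count was 4 without WT culture 1 or 2, 3 without KO culture 2 or 3 and 1 without KO culture 1, where the lower count was 2. Of 38 interferon-stimulated genes 2 were higher and 2 lower, near the shares of all genes, and after length correction 1 and 1. With library size alone 0 were lower. Parp14 (0.80 ± 0.19) was lost without WT culture 2 (0.69) and KO culture 1 (0.53), and Usp18 (-0.63 ± 0.18) without WT culture 2 (-0.51) or 3 (-0.70) and KO culture 1 (-0.42). Without KO culture 1 0 of the 38 were called, without WT culture 2 the counts were 0 and 1, and without WT culture 3 the lower count was 0.

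Transcription factors and early response genes also split. Of 33 measured factors of macrophage activation 7 had a higher and 3 a lower response, beside 6.5% and 5.14% of all genes, with a median of -0.02. Hif1a, the hypoxia factor, fell in WT at -0.16, -0.64 and -0.13 and rose in KO at 0.48, 0.35 and 0.41, an interaction of 0.73 ± 0.12 (SE, adjusted p = 0.0025) that was lost only without the block (adjusted p = 0.073). Mitf (0.64 ± 0.14), Maf (0.48 ± 0.13) and Rxra (0.40 ± 0.10) were higher, while Id3 (-0.53 ± 0.13) and the lineage factor Spi1 (-0.30 ± 0.09) were lower. In the hypoxia list 4 of 27 were higher and 2 lower, the lower ones Anxa2 at -0.42 ± 0.07 and Fam162a at -0.42 ± 0.13. The higher count there was 2 without WT culture 1 or KO culture 1 or 3, and the lower 1 without WT culture 2 or 3 or any 1 KO culture. In the immediate-early list 1 of 20 was higher and 3 lower. Jun, a subunit of AP-1, rose by 0.88, 0.97 and 0.89 in WT and 0.44, 0.19 and 0.22 in KO, an interaction of -0.63 ± 0.09 (SE, adjusted p = 0.0012) that held in all alternatives. After length correction the factor counts were 3 and 2, with Maf (0.27), Rxra (0.29) and Spi1 (-0.26) no longer called, the hypoxia counts 2 and 1, with Fam162a (-0.38) lost, and the immediate-early counts 1 and 4. With library size alone 1 hypoxia gene was lower. The factor counts were 1 and 0 without the block. Without KO culture 1 they were 2 and 1, and without WT culture 2 or KO culture 3 they were 4 and 1.

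Among the remaining lists the called genes were few or mixed, beside 6.5% of all genes higher and 5.14% lower. Lysosome genes gave 4 higher and 7 lower of 59, 3 and 5 after length correction and, with the balance turned, 7 and 3 with library size alone, with Ctsz, a cathepsin, at -0.43 ± 0.08 and Npc1, a cholesterol exporter, at 0.34 ± 0.09 (0.05 and not called after length correction). These counts were 0 and 1 without KO culture 1, 1 and 3 without WT culture 2, and 2 and 2 without KO culture 3, with 1 lower without WT culture 3 and 1 higher without KO culture 2. Of 16 genes of multinucleation and osteoclasts 3 were higher and 1 lower, led by the integrin Itgav at 0.66 ± 0.15 (0.39 after length correction, where 2 were higher and 1 lower), and 0 were called without KO culture 1. Itgav was then at 0.51, the higher count was 1 without KO culture 2, and the lower count was 0 without WT culture 2 or 3 or KO culture 3. Of 35 genes of ATF4 and amino acid stress 1 was higher and 2 lower, near or below the shares of all genes, and 0 and 3 after length correction, with 0 higher without WT culture 2 or KO culture 1 or 2 and 1 lower without WT culture 2 or 3 or KO culture 1 or 3. In the matrix and protease list 3 of 35 were higher and 4 lower, after length correction 3 and 3, and leaving out any 1 WT culture or KO culture 1 or 3 left 1 lower, as did library size alone. Genes beyond Fn1 and Thbs1 included Mmp19, a metalloprotease, which rose by 1.03, 1.27 and 1.04 in WT and 1.97, 1.87 and 1.35 in KO, an interaction of 0.62 ± 0.14 (SE, adjusted p = 0.014) that was lost without WT culture 3 (0.57) and KO cultures 1 (0.50) and 2 (0.53).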

How the data were processed

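RNA was measured in 12 libraries, which the titles assign to 4 groups of 3 with replicate numbers. Per the labels, an RNeasy Micro kit gave the RNA. The submitters' processing notes name STAR 2.7.2b, Subread 1.6.5 with its featureCounts, bcl2fastq and edgeR, and the build mm10. The authors deposited raw counts of reads for each gene, as whole numbers with no normalization, beside a gene length in bases per the file headers. The library kit, its strandedness and the rule that kept 13715 genes are not stated there, so the reads of overlapping or antisense genes cannot be separated.

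Counts were tested in R 4.3.3 by edgeR 4.0.16's quasi-likelihood test (two-sided, TMM factors, filterByExpr, which removed 0 genes). The fit had a term for each of the 6 cultures and an IL-4 term for each genotype, and the interaction was the difference of the IL-4 terms. It left 4 residual degrees of freedom. A gene was called when its p, adjusted by Benjamini-Hochberg across the whole table, was under 0.05. The SE is the log2 difference divided by the square root of F. CPM used TMM library sizes, and within-culture differences used log2 CPM with a prior count of 2. Same-numbered libraries of a genotype were taken as a pair because their deviations from the group means correlated over 8126 genes averaging at least 3 in log2 CPM, at 0.23, 0.49 and 0.41 in WT and 0.55, 0.58 and 0.52 in KO, all over 0.1. For 11 of the 12 libraries the same-numbered library was the closest among those of the other treatment in the genotype. The labels do not say that a number marks 1 culture. The length correction removed a lowess trend (span 0.3) of each library with gene length, within the model with the culture block.

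The members and the 27 gene lists were chosen with earlier results of these data known, so list counts are descriptions. The 16 entries that share a symbol count singly. Named genes were Stk11, Lyz2, Arg1, Chil3, Retnla and Mrc1, then the 12 largest called differences each way among genes averaging at least 3 in log2 CPM with no overlap of cultures (predicted models, ribosomal and histone genes left out), and up to 3 called members of each list by adjusted p. Some genes that this rule names are not reported here. Other list members in the text were chosen after their values were seen, and their calls were not followed singly under the alternatives. In counts simulated from these libraries (13715 genes, 50 altered at each size), the interaction test recovered 16% at a 1.25-fold change, 74% at 1.5-fold and all at 2-fold, and made 8 false calls. Far fewer genes were altered there than were called in the data, so these rates do not carry over to the data. The 14 alternatives included DESeq2 1.42.0 and limma voom (limma 3.58.1). They also included a run with no filter, which is the same as the main fit because the filter removed 0 genes.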

Additional observations from a re-analysis of the deposited data

Results flagged for a closer look

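The IL-4 response differed between KO and WT by the interaction test at 1596 genes. Of the named genes 10 responded in opposite directions, with IL-4 passing the test in each genotype and the difference passing too. Of these, 5 fell in WT and rose in KO, namely Fzd1 with a difference of 1.15, Ndst1 with 1.03, Cap1 with 0.99, Hif1a with 0.73 and Fnip1 with 0.62. The other 5 rose in WT and fell in KO, namely Icam1 with a difference of -0.63, Mrpl55 with -0.58, Eno1 with -0.51, Rpl35 with -0.45 and Lpl with -0.32. Without KO culture 1 the calls at Fnip1 (0.52), Rpl35 (-0.42) and Lpl (-0.32) were lost, with adjusted p of 0.060, 0.061 and 0.068.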

How the results depend on the processing

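Against 1596 calls (891 higher, 705 lower), the model without the culture block gave 101 (45 and 56), so most calls rested on the pairing. Leaving out both libraries of 1 culture gave 357 to 1301 calls, 189 to 683 of them higher and 168 to 618 lower, lowest without KO culture 1. Library size alone gave 1067 higher and 417 lower and moved the median of all genes to 0.10. Length correction gave 352 higher and 792 lower. The RLE, CPM filter, DESeq2 and voom alternatives gave 1563 to 1745 calls, each direction within 1.5 times the main count, and DESeq2 gave an adjusted p for 9194 genes. The no-filter alternative repeated the main fit, because the filter removed 0 genes, so its 1596 calls could not differ. Of 84 named genes that were called, 30 were called in every alternative and 54 lost the call without the block, 33 without KO culture 1 and 11 with length correction. Over all alternatives 1059 values of the 88 named genes kept the direction and the main outcome, whether called or not called. Another 165 lost the call. Reversals were at Retnla and Mrc1, which passed no test. Retnla interaction turned to -0.017 without the block and -0.0034 with RLE factors, and leaving out cultures gave -0.38 to 0.37, with -0.09 without WT culture 1 and -0.0077 without WT culture 3. Mrc1 interaction ran from -0.28 to 0.0068 on leaving out cultures, the latter without WT culture 1. The cause of these moves was not tested. With 3 cultures a genotype and 4 residual degrees of freedom, small differences may be missed, and the share missed in these data is not known.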
